A study of Mus musculus with 12 samples.

Results

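Bone marrow monocytes of C57Bl6J wild-type mice were sequenced in a factorial design of overnight platelet contact and later stimulation with lipopolysaccharide (LPS). What is described here is the interaction of these treatments, that is, how far the change with LPS differed between monocytes that had met platelets and monocytes that had not. All 12 libraries of the series entered it, 3 in each of 4 groups taken from the sample titles. The untreated group (NC) received neither treatment, and the platelet group (PLT) was kept with platelets overnight. The LPS group received LPS alone, and the platelet plus LPS group (PLT_LPS) was kept with platelets, washed, and then given LPS. All 4 groups share strain, genotype and tissue, and the sources used here give neither the age or sex of the mice nor the doses of platelets and LPS nor the time with LPS. The interaction was the platelet effect with LPS minus the platelet effect without LPS, each as a log2 fold, over 13151 genes. The same number is the LPS effect after platelets minus the LPS effect without them. A value of 0 means that the folds multiplied. A positive value means that the combined group lay above the product of the single folds, and a negative value that it lay below.

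LPS, a component of the outer membrane of Gram-negative bacteria, is sensed by Toll-like receptor 4 (TLR4), which signals through the adaptors MyD88 and TRIF to NF-kB, MAP kinases and interferon regulatory factors. Monocytes answer with a wave of cytokines, chemokines and interferon-induced transcripts, with induced inhibitors that limit the wave, and with loss of many transcripts of the resting cell. Platelets are anucleate fragments of megakaryocytes that bind monocytes and carry chemokines, TGF-beta, lipid mediators and some RNA of their own.

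Each library held between 20060867 and 32155727 counts, so that 3 counts in a library correspond to 0.0854 to 0.163 CPM (counts scaled to a common library size). Monocyte transcripts such as Csf1r, Itgam and Lyz2 were present in every library. In platelet replicate 1, which is labelled as a control in its description but as platelet-treated in its title and treatment label, 0.886% of counts were mitochondrial, against 0.431% to 0.600% in the other 11 libraries. In a chi-square test of counts over genes, the statistic divided by its degrees of freedom was 69.1 and 75.8 between it and the other platelet replicates, and 6.29 to 19.8 in all other pairs of 1 group. Of 25 platelet and megakaryocyte markers, 16 stayed under 1 CPM in every library without platelets and were set apart for that reason, after their values were seen. They summed to 0.578 to 0.911 CPM untreated, 1.36 to 2.64 with LPS, 41.3 to 71.4 with platelets and 28.5 to 32.3 with both. The highest sum, 71.4 CPM, was that of platelet replicate 1, the library with the control description. Markers that unexposed libraries also held did not all follow: Ppbp averaged 242 CPM untreated, 174 with platelets, 253 with LPS and 139 with both, and Pf4 averaged 3841, 4121, 4164 and 3513 CPM. All 25 together summed to 5068 to 5623 CPM untreated, 5189 to 7681 with platelets, 4882 to 5771 with LPS and 5061 to 5263 with both. The part of platelet RNA in the results below was not tested. Whether replicates were separate mice or cultures is not said in the labels. The p-values therefore rest on the spread among these libraries alone, and that spread may be technical.

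The interaction passed an adjusted p of 0.05 in 208 genes, 1.58% of those tested, by edgeR's quasi-likelihood test. It was positive in 113 genes (0.859%) and negative in 95 (0.722%). An unadjusted p under 0.05 was reached by 1395 of the 13151 genes, and 6769 estimates were positive and 6382 negative. Counts of list members given below are to be set against these. Their median log2 interaction was 0.85 and -0.91, against 0.01 over all genes tested, and in 75 genes it reached an absolute log2 of 1. Without platelet replicate 1, 361 genes passed, 153 of them positive and 208 negative, and 202 of the 208 genes were among them. For comparison, the platelet effect passed in 6.49% of genes without LPS (3.63% raised and 2.86% lowered) and in 7.28% with LPS (4.41% raised and 2.87% lowered), and the LPS effect in 50.7% without platelets and in 49.4% after platelets. Of the 208 genes, 79 (45 positive and 34 negative) passed whichever single library was left out, and none changed direction in any of the 20 alternative fits. Leaving out untreated replicate 2 gave the fewest calls, 87. Of the 58 calls named below, 46 passed with a term for replicate number in the fit (the replicate block). The calls it lost were Fcgr1, Tgfb1, Herpud1, Rgs1, Fcgr2b, Adgre4, Hdc, Bnip3, Ak4, H2-Ab1, H2-Aa and Sc5d. Losses given gene by gene below are those in the other alternative fits.

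The positive and negative genes are described here by where the platelet effect itself passed the threshold. These counts use the same group means as the call, so they describe the called genes and add no support. A higher platelet effect with LPS in positive genes, and a lower one in negative genes, follows from the call. The call also favours the LPS group as the lowest mean in positive genes and the highest in negative ones. In 71 of the 113 positive genes, the platelet effect passed the threshold with LPS only, and as a rise. Another 16 were lowered by platelets without LPS only, and 9 were lowered without LPS and raised with it. In the positive genes the median platelet effect went from a log2 of -0.16 without LPS to 0.64 with LPS. LPS itself lowered 51 of them in both settings and 21 only without platelets, and the LPS group had the lowest mean of the 4 groups in 81. Over all genes tested, LPS lowered 23% without platelets and 21.8% after them, and raised 27.7% and 27.6%. Among the 95 negative genes, 48 were raised by platelets without LPS only, 23 were lowered with LPS only and 6 were raised without LPS and lowered with it. Their median platelet effect went from 0.77 to -0.26. LPS raised 76 of the 95 in both settings, the untreated group had the lowest mean in 84 and the LPS group had the highest in 59. Without platelet replicate 1, the 71 became 107, the 48 became 70 and the 23 became 81. Without untreated replicate 2, they became 37, 22 and 8.

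**Figure D1:**
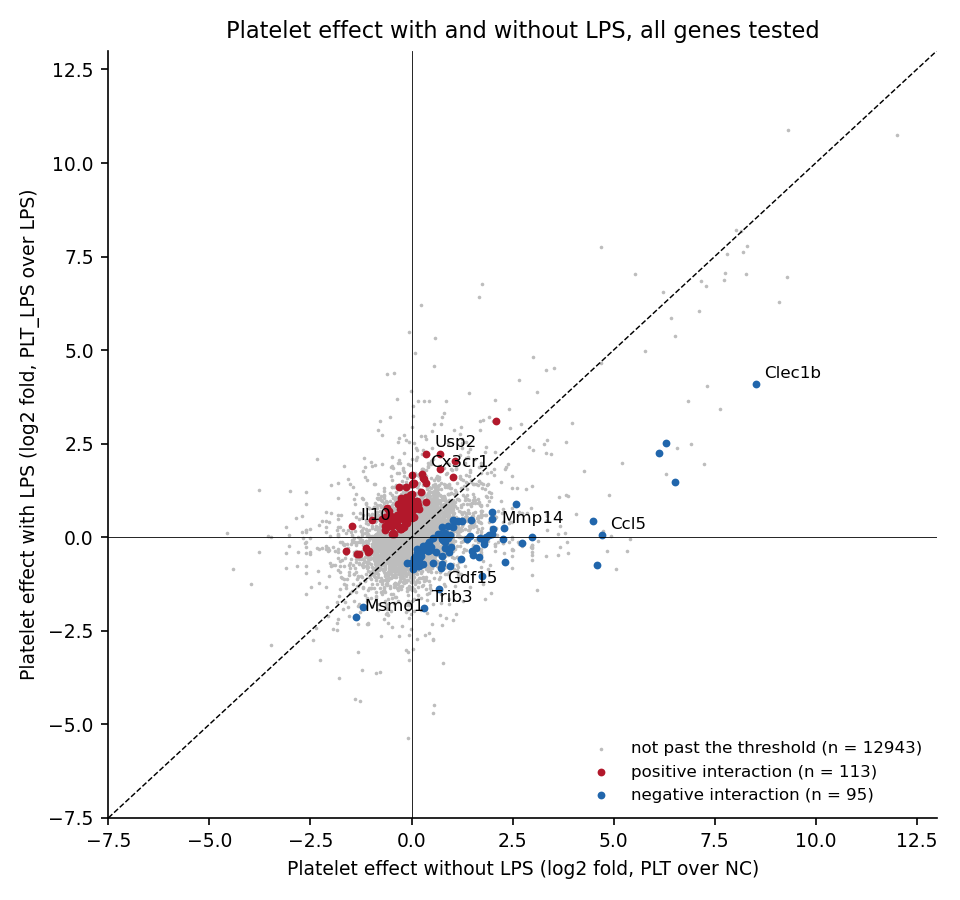
Platelet effect on each of the 13151 genes tested, as log2 fold, without LPS (x axis, PLT over NC) and with LPS (y axis, PLT_LPS over LPS). Each point is a gene and the dashed line marks equal effects. The 113 genes with a positive interaction (red) lie above the line, mostly near a value of 0 on the x axis, and the 95 with a negative interaction (blue) lie below it. Grey points did not pass the threshold.

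**Figure D2:**
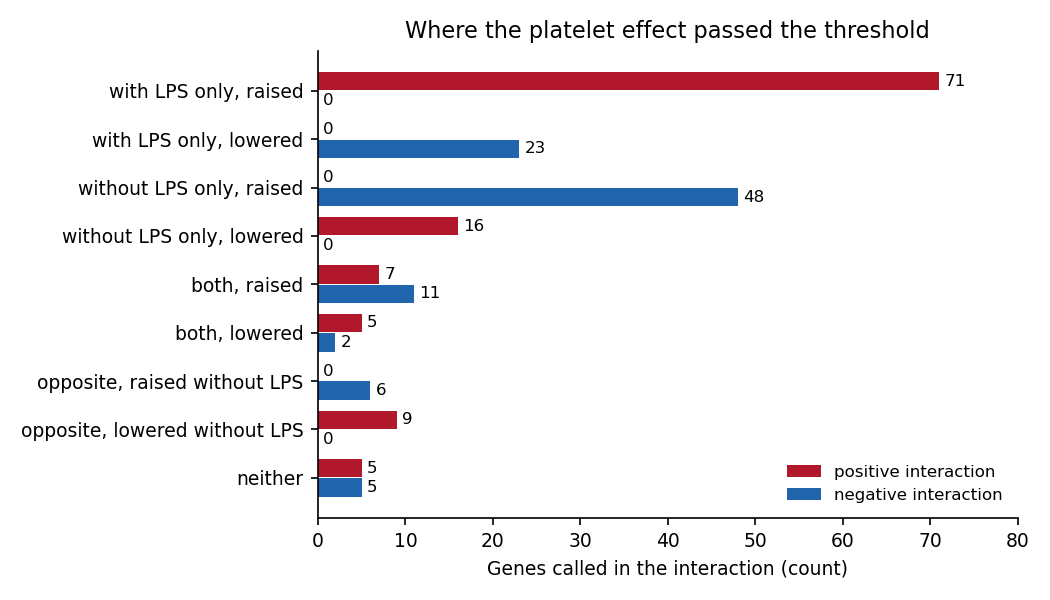
Number of genes called in the interaction (x axis) by where the platelet effect itself passed the threshold (y axis), for positive (red) and negative (blue) interactions. The longest bars are the 71 positive genes raised by platelets with LPS only and the 48 negative genes raised by platelets without LPS only.

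The monocyte-attracting chemokines Ccl2 and Ccl7, both ligands of the receptor Ccr2, had a positive interaction: LPS lowered them in monocytes without platelet contact and did not lower them after it. Ccl2 measured 1324, 1315 and 1507 CPM in the untreated libraries, 1636, 1345 and 1279.7 in the platelet libraries, 637, 625 and 537 in the LPS libraries and 1492, 1643 and 1749 in the platelet plus LPS libraries. The LPS libraries were the lowest, and those of the other 3 groups overlapped. LPS alone lowered Ccl2 2.305-fold (adjusted p = 6.85e-08), while LPS after platelets gave 1.15 times the platelet level (adjusted p = 0.125). The log2 interaction was 1.40 ± 0.15 (adjusted p = 0.00011), given here and below as estimate ± standard error, which makes the platelet fold 2.64 times as large with LPS as without. Ccl7 measured 916, 838 and 933 CPM in the untreated libraries, 1337, 1016 and 947 in the platelet libraries, 578, 568 and 479 in the LPS libraries and 1501, 1643 and 1756 in the platelet plus LPS libraries. Its 3 platelet plus LPS libraries were the highest of the 12, and its 3 LPS libraries the lowest. LPS lowered Ccl7 1.65-fold without platelets (adjusted p = 7.71e-05) and raised it 1.49-fold after platelets (adjusted p = 0.000708), with an interaction of 1.30 ± 0.16 (adjusted p = 0.000607). Of the 25 chemokine genes tested, these were the only positive calls by edgeR, and Ccl5, Ccl24 and Cxcl16 were negative. The counts were 5 positive and 4 negative without platelet replicate 1.

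Cx3cr1, a gene of resting monocytes, was lowered by LPS in both settings, but less after platelets. It encodes the fractalkine receptor, which guides and sustains patrolling monocytes, and measured 142, 139 and 122 CPM in the untreated libraries, 144, 174 and 166 in the platelet libraries, 25.6, 23.2 and 29.2 in the LPS libraries and 85.2, 81.2 and 86.3 in the platelet plus LPS libraries. Both LPS groups lay below both groups without LPS, and the platelet plus LPS libraries did not overlap the LPS libraries. LPS lowered Cx3cr1 5.18-fold without platelets and 1.91-fold after them, an interaction of 1.44 ± 0.14 (adjusted p = 9.82e-05).

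Positive interactions were also called for Irf8 and Fcgr1, of the monocyte and macrophage marker list, and for Runx3, P2ry6 and Cdt1. The 14 markers of that list that were tested had mixed directions. Their estimates were positive in 9 and negative in 5, with a median of 0.09 against 0.01 over all genes tested. The monocyte lineage factor Irf8 stood at 304 ± 11.7 CPM untreated, 331 ± 8.89 with platelets, 108 ± 13.3 with LPS and 186 ± 6.14 with both (mean ± SD, n = 3 libraries per group, here and below). Its interaction was 0.66 ± 0.13 (adjusted p = 0.0146), and the call was lost without untreated replicate 2 or platelet plus LPS replicate 2. Runx3, a factor that acts with TGF-beta signalling, stood at 12.03 ± 1.31 CPM untreated, 12.3 ± 0.417 with platelets, 2.28 ± 0.935 with LPS and 6.07 ± 0.716 with both. It had an interaction of 1.40 ± 0.30 (adjusted p = 0.0306), which fell short of the threshold without untreated replicate 1, 2 or 3, platelet replicate 2 or 3, LPS replicate 1 or platelet plus LPS replicate 1, 2 or 3. P2ry6, a receptor for extracellular UDP, stood at 251 ± 15.1 CPM untreated, 209 ± 17.9 with platelets, 90.7 ± 6.28 with LPS and 188 ± 11.1 with both, with an interaction of 1.32 ± 0.13 (adjusted p = 9.82e-05). LPS lowered P2ry6 2.76-fold without platelets (adjusted p = 1.39e-09) and 1.11-fold after them, which did not pass (adjusted p = 0.185). The DNA replication licensing factor Cdt1 stood at 87.5 ± 4.21 CPM untreated, 85.02 ± 0.289 with platelets, 11.6 ± 1.15 with LPS and 22.02 ± 3.17 with both, with an interaction of 0.96 ± 0.15 (adjusted p = 0.00388). Fcgr1, the high-affinity Fc receptor of monocytes, was raised by LPS and stood at 162 ± 11.6 CPM untreated, 165 ± 12.01 with platelets, 222 ± 7.43 with LPS and 319 ± 15.5 with both. Its interaction of 0.50 ± 0.12 (adjusted p = 0.0487) remained a call without platelet replicate 1 and was lost without any other single library, and with DESeq2 size factors, upper-quartile factors or no filter on low counts.

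**Figure D3:**
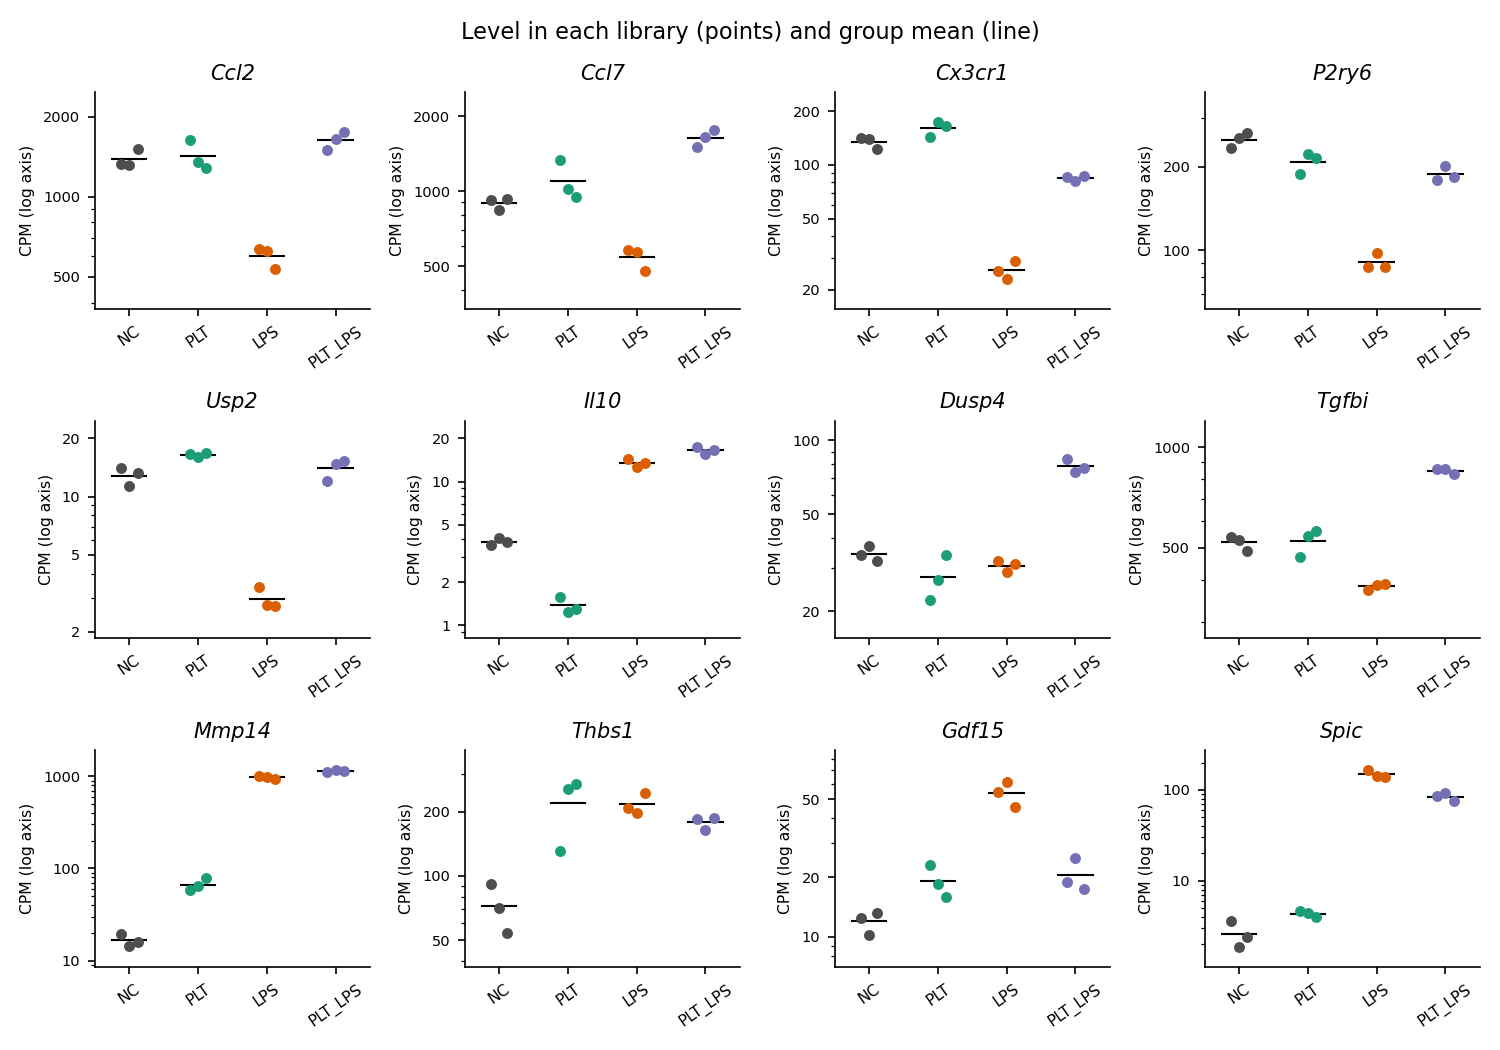
Level of 12 genes in every library (points, CPM on a log axis) with the group mean (line), for the untreated (NC), platelet (PLT), LPS and platelet plus LPS (PLT_LPS) groups. In the upper 2 rows the interaction is positive: for Ccl2, Ccl7, Cx3cr1, P2ry6, Usp2 and Tgfbi the LPS libraries are the lowest, for Dusp4 the platelet plus LPS libraries are the highest, and for Il10 the platelet libraries are the lowest. In the bottom row the interaction is negative.

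TGF-beta is a cytokine stored in platelet granules. Of the 24 genes of the TGF-beta response list that were tested, 4 had a positive interaction (Smad6, Tgfb1, Tgfbi and Cx3cr1) and 0 a negative one by edgeR, with 15 of the 24 at an unadjusted p under 0.05. Over all genes tested, 1.58% were called and 1395 of 13151 had an unadjusted p under 0.05. In this list, DESeq2 called 7 positive and 0 negative, and limma-voom 5 and 0. By edgeR, 6 were positive and 1 negative (Bhlhe40, named after its value was seen) without platelet replicate 1, and 2 and 0 without untreated replicate 2. Tsc22d1, induced by TGF-beta, and Gdf15, of the TGF-beta family, are outside the list, were called negative and are described below. The list's median interaction was 0.50, and its median platelet effect was 0.14 without LPS and 0.74 with LPS. Tgfbi, a secreted matrix protein named for its induction by TGF-beta, measured 539, 526 and 488 CPM in the untreated libraries, 469, 541 and 562 in the platelet libraries, 373, 385 and 389 in the LPS libraries and 858, 861 and 831 in the platelet plus LPS libraries. The platelet plus LPS libraries were the highest and the LPS libraries the lowest, while untreated and platelet libraries overlapped. LPS lowered Tgfbi 1.35-fold without platelets (adjusted p = 0.000236) and raised it 1.62-fold after platelets (adjusted p = 1.91e-06), an interaction of 1.13 ± 0.11 (adjusted p = 9.82e-05). Tgfb1 itself, which encodes the cytokine, stood at 139 ± 4.62 CPM untreated, 115 ± 3.76 with platelets, 96.1 ± 5.83 with LPS and 114 ± 5.91 with both. Its interaction was 0.52 ± 0.11 (adjusted p = 0.0299), neither platelet effect passed on its own, and the call was lost without untreated replicate 1, 2 or 3, platelet replicate 2, LPS replicate 1 or 3 or platelet plus LPS replicate 1 or 2, and with no filter on low counts.

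Signalling and growth-factor genes also had positive interactions. Dusp4, a phosphatase that switches off MAP kinases in the nucleus, measured 33.9, 37.1 and 32.3 CPM in the untreated libraries, 22.2, 26.9 and 34.1 in the platelet libraries, 32.1, 28.9 and 31.3 in the LPS libraries and 84.2, 74.4 and 77.3 in the platelet plus LPS libraries. The platelet plus LPS libraries stood apart above all 9 others, which overlapped each other. Platelets raised Dusp4 2.56-fold with LPS (adjusted p = 6.32e-06) and gave 0.807 times the untreated level without LPS (adjusted p = 0.186), an interaction of 1.66 ± 0.18 (adjusted p = 0.000156). Fos, an immediate early gene of the AP-1 factor, stood at 187 ± 4.47 CPM untreated, 183 ± 5.19 with platelets, 127 ± 4.601 with LPS and 247 ± 3.35 with both. LPS lowered Fos 1.47-fold without platelets (adjusted p = 7.88e-06) and raised it 1.35-fold after platelets (adjusted p = 0.000109), an interaction of 0.99 ± 0.10 (adjusted p = 0.00011). The deubiquitinase Usp2 had the largest positive estimate of the genes that met the level rule for naming. It measured 13.99, 11.3 and 13.2 CPM in the untreated libraries, 16.6, 16.01 and 16.8 in the platelet libraries, 3.403, 2.76 and 2.72 in the LPS libraries and 12.1, 14.7 and 15.3 in the platelet plus LPS libraries, so that the LPS libraries stood apart below the rest. LPS lowered Usp2 4.302-fold without platelets (adjusted p = 7.47e-09) but 1.18-fold after them (adjusted p = 0.161), an interaction of 1.87 ± 0.20 (adjusted p = 0.000148).

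Pdgfa, Synj2 and Arl4c were lower in both LPS groups than in both groups without LPS, and less so after platelets. Pdgfa, which encodes a chain of platelet-derived growth factor, stood at 14.5 ± 1.16 CPM untreated, 13.2 ± 3.29 with platelets, 3.33 ± 0.5601 with LPS and 8.34 ± 0.853 with both, with an interaction of 1.47 ± 0.26 (adjusted p = 0.00843). The inositol phosphatase Synj2 stood at 41.2 ± 4.87 CPM untreated, 26.9 ± 5.47 with platelets, 7.58 ± 0.512 with LPS and 12.9 ± 0.659 with both, with an interaction of 1.38 ± 0.21 (adjusted p = 0.00279). Arl4c, a small GTPase gene that is also a target of the sterol-sensing LXR receptors, stood at 25.8 ± 3.27 CPM untreated, 42.5 ± 15.3 with platelets, 2.06 ± 0.2804 with LPS and 9.76 ± 0.433 with both. Platelets raised Arl4c 1.64-fold without LPS and 4.68-fold with LPS, an interaction of 1.51 ± 0.30 (adjusted p = 0.0199). On the linear scale the sign was the other one, -8.93 CPM, since the platelet rise was the larger in CPM without LPS. The Arl4c call was lost without LPS replicate 1, 2 or 3 or platelet plus LPS replicate 2 or 3, and with limma-voom.

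A smaller group of positive interactions rested on genes that platelets lowered in the resting cell and that LPS raised, Irf2 only after platelets. The anti-inflammatory cytokine Il10 measured 3.65, 4.03 and 3.77 CPM in the untreated libraries, 1.58, 1.25 and 1.31 in the platelet libraries, 14.3, 12.6 and 13.5 in the LPS libraries and 17.4, 15.5 and 16.6 in the platelet plus LPS libraries. The platelet libraries were the lowest of all, and the platelet plus LPS libraries the highest. Platelets lowered Il10 2.77-fold without LPS (adjusted p = 2.16e-05) and gave 1.23 times the LPS level with LPS (adjusted p = 0.213). LPS raised Il10 3.52-fold without platelets and 11.96-fold after them, an interaction of 1.77 ± 0.20 (adjusted p = 0.000229). Cd72, an inhibitory lectin-like receptor, stood at 6.28 ± 0.0967 CPM untreated, 3.15 ± 0.595 with platelets, 21.9 ± 1.34 with LPS and 30.4 ± 1.49 with both. Platelets lowered Cd72 1.98-fold without LPS (adjusted p = 0.000351) and raised it 1.39-fold with LPS (adjusted p = 0.0256), an interaction of 1.46 ± 0.18 (adjusted p = 0.000584). The collagenase Mmp13 stood at 10.6 ± 1.11 CPM untreated, 3.45 ± 0.5096 with platelets, 217 ± 17.6 with LPS and 168 ± 7.89 with both. Platelets lowered Mmp13 3.08-fold without LPS and 1.29-fold with LPS, an interaction of 1.25 ± 0.16 (adjusted p = 0.000607), while on the linear scale the sign was negative, -41.9 CPM. Irf2, a repressor of interferon-responsive genes, stood at 60.02 ± 1.38 CPM untreated, 43.1 ± 4.55 with platelets, 61.7 ± 2.196 with LPS and 76.5 ± 5.31 with both, with an interaction of 0.79 ± 0.13 (adjusted p = 0.00486).

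**Figure D4:**
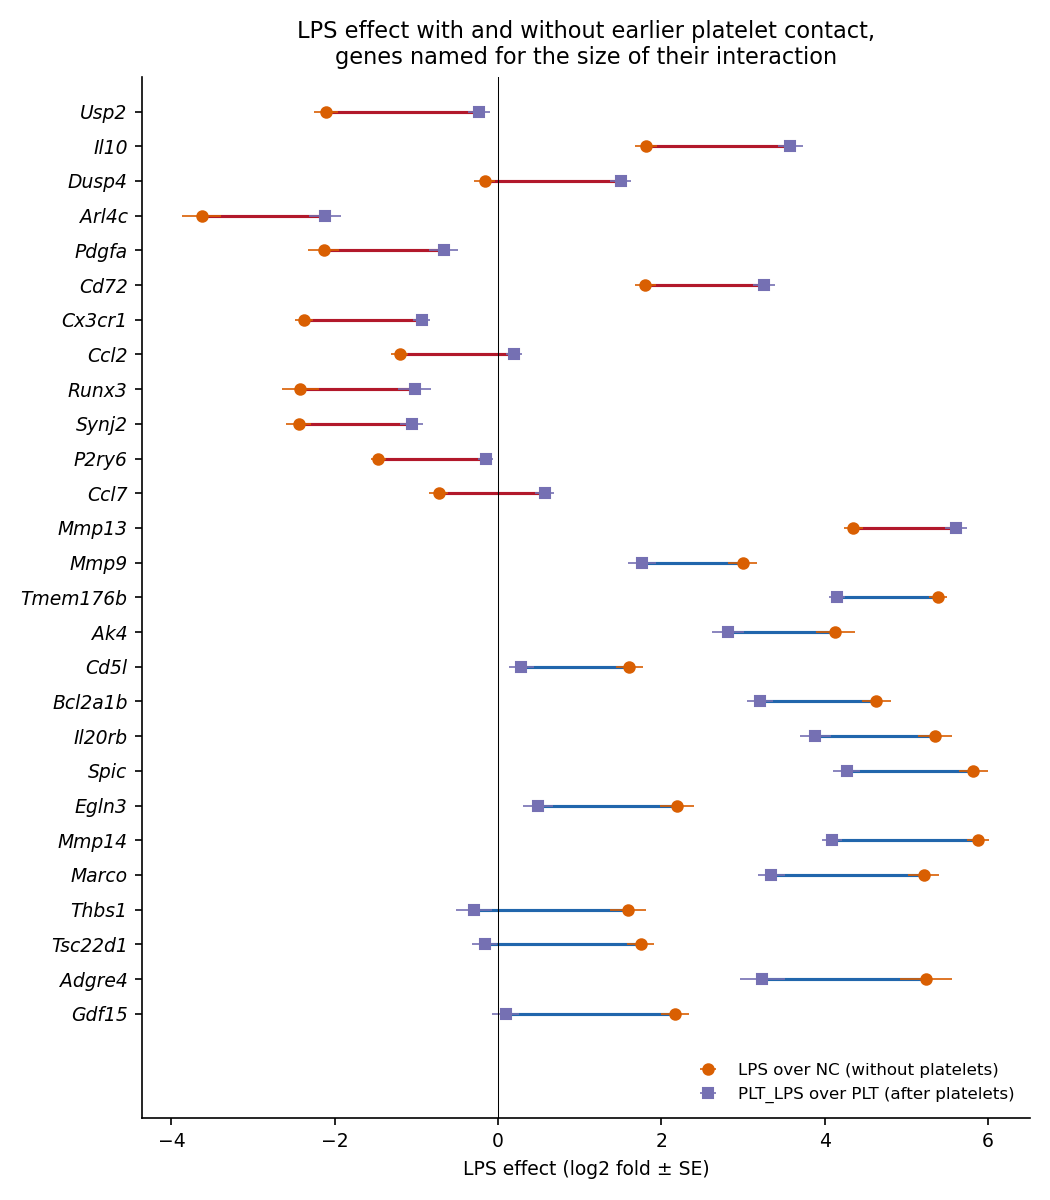
LPS effect (log2 fold ± SE) without platelets (circles, LPS over NC) and after platelets (squares, PLT_LPS over PLT) for the genes named for the size of their interaction, 13 positive (red lines) and 14 negative (blue lines). The circle and square of Ccl7 lie on opposite sides of 0, the squares of Usp2 and P2ry6 lie close to 0, and for Spic, Mmp14 and Tmem176b both symbols lie far to the right with the square nearer to 0.

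Negative interactions were of 2 main kinds, and the first held genes that LPS induced and that platelets lowered in LPS-treated cells. Gdf15, a stress-induced cytokine of the TGF-beta family, had the most negative estimate of the genes that met the level rule for naming. It measured 12.5, 10.2 and 13.2 CPM in the untreated libraries, 23.1, 18.4 and 15.9 in the platelet libraries, 54.3, 60.9 and 45.8 in the LPS libraries and 18.8, 25.1 and 17.5 in the platelet plus LPS libraries. The LPS libraries stood apart above all others, and the platelet and platelet plus LPS libraries overlapped. Platelets raised Gdf15 1.599-fold without LPS (adjusted p = 0.0255) and lowered it 2.63-fold with LPS (adjusted p = 6.75e-05). LPS raised Gdf15 4.49-fold without platelets and gave 1.07 times the platelet level after them, an interaction of -2.07 ± 0.24 (adjusted p = 0.000209). Spic, the transcription factor of iron-recycling macrophages, measured 3.61, 1.89 and 2.38 CPM in the untreated libraries, 4.61, 4.41 and 4.04 in the platelet libraries, 165, 143 and 139 in the LPS libraries and 85.5, 92.04 and 74.6 in the platelet plus LPS libraries. The LPS libraries were the highest and did not overlap the platelet plus LPS libraries. LPS raised Spic 56.5-fold without platelets and 19.3-fold after them, an interaction of -1.55 ± 0.23 (adjusted p = 0.00277). Tmem176b, a membrane protein of antigen-presenting cells encoded beside Tmem176a, stood at 3.79 ± 0.246 CPM untreated, 6.37 ± 0.513 with platelets, 159.6 ± 10.5 with LPS and 114 ± 5.22 with both, with an interaction of -1.24 ± 0.14 (adjusted p = 0.000185). Reads of Tmem176b and Tmem176a may not be told apart where the genes overlap, since the strand setting of the counting is not given in the sources used here.

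The regulators and stress genes given here and in the next paragraph had a lower mean with both treatments than with LPS alone. LPS induced all of them but Rgs1, which stood near its untreated level with LPS alone. Phgdh was also raised by platelets without LPS. Ebi3, the shared subunit of the cytokines IL-27 and IL-35, stood at 14.5 ± 0.5104 CPM untreated, 16.2 ± 1.14 with platelets, 186 ± 4.43 with LPS and 125 ± 5.99 with both, with an interaction of -0.74 ± 0.12 (adjusted p = 0.00388). Il20rb, a receptor chain for the IL-20 cytokine family, stood at 0.579 ± 0.202 CPM untreated, 0.978 ± 0.149 with platelets, 23.9 ± 0.794 with LPS and 14.6 ± 1.78 with both. The Il20rb interaction was -1.47 ± 0.29 (adjusted p = 0.0192), a call that was lost without untreated replicate 2 or 3, platelet replicate 3 or LPS replicate 1, and with limma-voom. Irak2, a signalling component of the TLR complex, stood at 49.1 ± 0.911 CPM untreated, 59.8 ± 6.55 with platelets, 372 ± 9.33 with LPS and 292 ± 12.7 with both. Its interaction was -0.64 ± 0.12 (adjusted p = 0.0141), and the call was lost without untreated replicate 2 or platelet plus LPS replicate 2. Trib3, a pseudokinase induced by the stress factor ATF4, stood at 1.89 ± 0.424 CPM untreated, 2.35 ± 0.238 with platelets, 7.71 ± 1.195 with LPS and 2.07 ± 0.976 with both. LPS raised Trib3 4.06-fold without platelets (adjusted p = 2.74e-05) and gave 0.881 times the platelet level after them (adjusted p = 0.648), an interaction of -2.21 ± 0.42 (adjusted p = 0.0141) that was lost without untreated replicate 2 or LPS replicate 1.

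Herpud1, a component of endoplasmic reticulum protein degradation, stood at 64.9 ± 2.26 CPM untreated, 71.6 ± 2.71 with platelets, 155 ± 6.72 with LPS and 116 ± 11.2 with both. The Herpud1 interaction was -0.56 ± 0.12 (adjusted p = 0.0302), and it was lost without untreated replicate 1, 2 or 3, platelet replicate 2, LPS replicate 1 or 2 or platelet plus LPS replicate 1 or 3. Phgdh, the first enzyme of serine synthesis and another ATF4 target, stood at 6.34 ± 0.54 CPM untreated, 9.68 ± 1.54 with platelets, 18.5 ± 0.963 with LPS and 14.1 ± 1.37 with both. Platelets raised Phgdh 1.53-fold without LPS (adjusted p = 0.0168), and its interaction of -0.99 ± 0.20 (adjusted p = 0.0177) was lost without untreated replicate 2 or platelet plus LPS replicate 2. Rgs1, which dampens signalling of G protein-coupled receptors, stood at 20.4 ± 1.28 CPM untreated, 23.1 ± 2.47 with platelets, 21.5 ± 0.655 with LPS and 14.6 ± 2.197 with both. It had an interaction of -0.74 ± 0.17 (adjusted p = 0.0472), which was lost without untreated replicate 1, 2 or 3, platelet replicate 2, LPS replicate 1, 2 or 3 or platelet plus LPS replicate 1, 2 or 3, and with scaling by library size alone and with limma-voom. Trib3, Phgdh and Herpud1 were the 3 calls among 27 genes of the ATF4 and unfolded protein response list, all negative, and 7 of the 27 had an unadjusted p under 0.05. Leaving out platelet replicate 1 gave 5 negative calls, leaving out untreated replicate 2 gave 0, and DESeq2 called 6 negative.

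The second kind of negative interaction held genes that platelets raised in resting monocytes and raised less, or not detectably, once LPS was given. Mmp14, the membrane-bound protease that cleaves collagen and activates other matrix proteases, measured 19.5, 14.2 and 15.9 CPM in the untreated libraries, 57.9, 63.9 and 78.1 in the platelet libraries, 996, 988 and 937 in the LPS libraries and 1116, 1162 and 1132 in the platelet plus LPS libraries. The groups did not overlap, in the order untreated, platelet, LPS and platelet plus LPS. Platelets raised Mmp14 4.03-fold without LPS (adjusted p = 5.42e-08) and gave 1.17 times the LPS level with LPS (adjusted p = 0.292). The interaction of Mmp14 was -1.79 ± 0.16 (adjusted p = 5.61e-05), with a positive sign of 113 CPM on the linear scale, since the difference between LPS groups was the larger in CPM. Thbs1, which encodes the matrix protein thrombospondin, measured 91.3, 70.7 and 54.3 CPM in the untreated libraries, 131, 255 and 269 in the platelet libraries, 209, 198 and 245 in the LPS libraries and 185, 164 and 186 in the platelet plus LPS libraries. The untreated libraries were the lowest, the platelet plus LPS libraries lay below the LPS libraries, and platelet replicate 1 lay below the other platelet replicates. Platelets raised Thbs1 3.03-fold without LPS (adjusted p = 0.000325), and LPS raised it 3.01-fold without platelets but gave 0.817 times the platelet level after them. The Thbs1 interaction was -1.88 ± 0.31 (adjusted p = 0.00487).

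Tgm2, a transglutaminase that crosslinks matrix proteins, stood at 51.3 ± 4.72 CPM untreated, 121 ± 12.8 with platelets, 235 ± 7.87 with LPS and 316 ± 7.59 with both. Platelets raised Tgm2 2.36-fold without LPS and 1.35-fold with LPS, an interaction of -0.81 ± 0.13 (adjusted p = 0.00465) with a positive sign on the linear scale, 11.8 CPM. The gelatinase Mmp9, also a neutrophil granule protein, stood at 3.43 ± 0.5397 CPM untreated, 6.75 ± 1.45 with platelets, 27.4 ± 2.48 with LPS and 22.96 ± 3.67 with both. Its interaction was -1.23 ± 0.24 (adjusted p = 0.0177), and the call was lost without untreated replicate 3 or LPS replicate 1. Summed over the 15 neutrophil markers, levels were 383 to 413 CPM untreated, 225 to 261 with platelets, 354 to 428 with LPS and 274 to 324 with both, and Mmp9 was the 1 call among the 11 tested. Most of that sum was Mmp8, at 334 to 350.4 CPM untreated, 145 to 186 with platelets, 199 to 246 with LPS and 118 to 126 with both. The other 14 markers summed to 49.4 to 62.9 CPM untreated, 75.0 to 80.1 with platelets, 155 to 182 with LPS and 156 to 205 with both. Tsc22d1, a leucine zipper gene induced by TGF-beta, stood at 5.9002 ± 0.771 CPM untreated, 20.7 ± 4.12 with platelets, 19.8 ± 2.46 with LPS and 18.4 ± 2.25 with both. Platelets raised Tsc22d1 3.49-fold without LPS (adjusted p = 4.07e-06) and gave 0.9301 times the LPS level with LPS, an interaction of -1.91 ± 0.23 (adjusted p = 0.00029).

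Further macrophage genes were raised by platelets alone and induced by LPS. The scavenger receptor Marco, which binds bacteria and particles, stood at 2.09 ± 0.609 CPM untreated, 7.99 ± 0.734 with platelets, 77.7 ± 11.9 with LPS and 81.5 ± 9.59 with both. Platelets raised Marco 3.81-fold without LPS (adjusted p = 1.01e-05) and gave 1.05 times the LPS level with it, an interaction of -1.86 ± 0.24 (adjusted p = 0.000657). The inhibitory Fc receptor Fcgr2b stood at 30.6 ± 0.676 CPM untreated, 47.9 ± 3.196 with platelets, 476 ± 7.84 with LPS and 504 ± 24.9 with both. Its interaction of -0.56 ± 0.11 (adjusted p = 0.0155) was lost without untreated replicate 1 or 2, LPS replicate 1 or platelet plus LPS replicate 3, and its sign on the linear scale was positive, 11.0 CPM. Cd5l, a secreted protein of tissue macrophages, stood at 4.23 ± 0.413 CPM untreated, 8.097 ± 0.5503 with platelets, 12.9 ± 2.34 with LPS and 9.88 ± 0.909 with both, with an interaction of -1.32 ± 0.22 (adjusted p = 0.00564). The adhesion receptor Adgre4 stood at 0.512 ± 0.349 CPM untreated, 1.46 ± 0.468 with platelets, 19.4 ± 2.11 with LPS and 13.9 ± 2.44 with both. Its interaction was -2.00 ± 0.43 (adjusted p = 0.0299), which became -2.71 without untreated replicate 1, and the call was lost without untreated replicate 2 or 3, platelet replicate 3, LPS replicate 1 or 2 or platelet plus LPS replicate 1 or 2, and with limma-voom. Bcl2a1b, a survival gene of the BCL2 family, stood at 4.97 ± 0.3896 CPM untreated, 12.997 ± 3.81 with platelets, 123 ± 15.8 with LPS and 119.9 ± 3.97 with both, with an interaction of -1.42 ± 0.23 (adjusted p = 0.00388). Reads of Bcl2a1b can be shared with its near-identical copies, so its counts are uncertain.

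Strongly LPS-induced genes with hardly any transcript in untreated cells were also called, and platelets alone left them at slightly higher levels than untreated cells. Saa3, an acute-phase protein of activated macrophages, measured 0.561, 0.351 and 0.442 CPM in the untreated libraries, 3.696, 3.38 and 3.701 in the platelet libraries, 2689, 2835 and 2089.7 in the LPS libraries and 2684, 2718 and 2288 in the platelet plus LPS libraries. The platelet libraries all lay above the untreated ones, and the LPS and platelet plus LPS libraries overlapped at levels far higher. Platelets raised Saa3 7.89-fold without LPS (adjusted p = 2.18e-07) and gave 1.01 times the LPS level with LPS, an interaction of -2.97 ± 0.23 (adjusted p = 2.52e-05). The chemokine Ccl5, which attracts T cells, measured 0.175, 0.0351 and 0 CPM in the untreated libraries, 2.57, 1.31 and 1.96 in the platelet libraries, 5026, 5692 and 4261 in the LPS libraries and 4848, 5376 and 5348 in the platelet plus LPS libraries. Its interaction was -4.66 ± 0.51 (adjusted p = 0.000156), and without untreated replicate 1 it was -6.42, since only 6 counts were behind the untreated level. Ccr7, the receptor that leads dendritic cells to lymph nodes, stood at 0.314 ± 0.215 CPM untreated, 2.08 ± 0.815 with platelets, 34.2 ± 3.17 with LPS and 30.5 ± 4.08 with both. The Ccr7 interaction was -2.89 ± 0.42 (adjusted p = 0.00254), or -3.59 without untreated replicate 2. Ccr7 was the 1 call by edgeR among 14 tested dendritic cell markers, and 2 were called negative without platelet replicate 1 and by DESeq2. All 15 markers of that list summed to 94.0 to 108 CPM untreated, 144 to 224 with platelets, 357 to 444 with LPS and 499.9 to 557 with both. Most of it was Bst2, which interferon also induces, and the other 14 summed to 9.07 to 10.9 CPM untreated, 14.8 to 16.4 with platelets, 86.1 to 103 with LPS and 100.5 to 113 with both.

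Il1a, an alarm cytokine, measured 0, 0.0351 and 0 CPM in the untreated libraries, 0.352, 0.2501 and 0.455 in the platelet libraries, 82.2, 69.5 and 84.5 in the LPS libraries and 113, 99.5 and 107 in the platelet plus LPS libraries. The untreated libraries held 1 count in all, so no fold is given for Il1a against them, and its fitted interaction of -4.04 ± 0.71 (adjusted p = 0.00785) depends on that count. It became -5.86 without untreated replicate 2, and limma-voom did not call it. Hdc, the enzyme that makes histamine, is known from basophils and mast cells and stood at 0.231 ± 0.109 CPM untreated, 0.645 ± 0.386 with platelets, 103 ± 1.85 with LPS and 80.4 ± 2.399 with both. Its interaction of -1.87 ± 0.44 (adjusted p = 0.0464) was a call without platelet replicate 1 and was lost without any other single library, with scaling by library size alone and with limma-voom, and it moved to -1.24 without platelet replicate 3. Hdc was the 1 call among 7 tested basophil and mast cell markers. The AP-1 family factor Batf stood at 6.01 ± 0.484 CPM untreated, 10.5 ± 1.21 with platelets, 102 ± 2.27 with LPS and 99.3 ± 8.42 with both, with an interaction of -0.83 ± 0.15 (adjusted p = 0.00827). Nfkb2, a subunit of the NF-kB family, stood at 55.7 ± 3.29 CPM untreated, 72.3 ± 3.26 with platelets, 742 ± 39.7 with LPS and 639 ± 7.65 with both, with an interaction of -0.59 ± 0.11 (adjusted p = 0.01) that was lost without untreated replicate 2. On the linear scale the signs for Saa3, Ccl5 and Il1a were positive, at 22.3, 196 and 27.6 CPM, and the platelet effect with LPS did not pass for Saa3 (adjusted p = 0.963) or Ccl5 (adjusted p = 0.891).

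Ifit1, an antiviral effector and standard interferon-induced gene, measured 0.1403, 0.245 and 0.136 CPM in the untreated libraries, 0.739, 1.09 and 0.769 in the platelet libraries, 2109, 1982 and 1998 in the LPS libraries and 2343, 2316 and 2497 in the platelet plus LPS libraries. Platelet libraries lay above untreated ones and platelet plus LPS libraries above LPS ones, with no overlap in either pair. Platelets raised Ifit1 4.902-fold without LPS (adjusted p = 2.9e-05) and gave 1.18 times the LPS level with LPS (adjusted p = 0.13). The interaction was -2.06 ± 0.27 (adjusted p = 0.000704), limma-voom did not call it, and the sign on the linear scale was positive, 355 CPM. Ifit1 was the 1 call by edgeR among 56 interferon-stimulated genes, 12 of which had an unadjusted p under 0.05. Of the 56, 1 was positive and 4 negative without platelet replicate 1, and DESeq2 called 0 positive and 4 negative. The median interaction of the 56 was -0.03.

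The hypoxia-linked genes Egln3, Bnip3 and Ak4 were raised by platelets in both settings, and by a smaller fold with LPS. Egln3, a prolyl hydroxylase that is itself induced by the hypoxia-inducible factors it regulates, stood at 3.099 ± 1.16 CPM untreated, 18.7 ± 3.58 with platelets, 14.2 ± 1.1004 with LPS and 26.3 ± 2.24 with both. Platelets raised Egln3 6.03-fold without LPS (adjusted p = 1.06e-06) and 1.85-fold with LPS (adjusted p = 0.00796), an interaction of -1.70 ± 0.28 (adjusted p = 0.00486). Bnip3, which marks mitochondria for autophagy in hypoxia, stood at 18.3 ± 0.546 CPM untreated, 37.04 ± 3.22 with platelets, 64.3 ± 3.08 with LPS and 87.7 ± 1.98 with both. Its interaction of -0.57 ± 0.12 (adjusted p = 0.0286) was lost without untreated replicate 1, 2 or 3, platelet replicate 2, LPS replicate 1 or 3 or platelet plus LPS replicate 1, 2 or 3, and with no filter on low counts, and its sign on the linear scale was positive, 4.58 CPM. Ak4, a mitochondrial adenylate kinase, stood at 0.8597 ± 0.379 CPM untreated, 3.39 ± 0.729 with platelets, 15.1 ± 1.03 with LPS and 24.1 ± 1.28 with both. Its interaction of -1.31 ± 0.31 (adjusted p = 0.0465) was a call without untreated replicate 1 or platelet replicate 1 and was lost without any other single library, with DESeq2 size factors, with scaling by library size alone and with limma-voom. The sign for Ak4 on the linear scale was positive, 6.43 CPM. Egln3 and Bnip3 were the 2 calls among the 35 genes of the glycolysis and hypoxia list by edgeR, both negative, and 11 of the 35 had an unadjusted p under 0.05. Ak4 is outside that list. The list's median interaction was -0.07 against 0.01 over all genes, with 13 positive and 22 negative estimates. Its median platelet effect was 0.30 without LPS and 0.23 with LPS. With platelet replicate 1 left out, 1 member was positive and 5 negative, and without untreated replicate 2 Egln3 alone was called. DESeq2 called 1 positive and 7 negative.

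H2-Ab1 and H2-Aa of MHC class II, which presents antigen to helper T cells, were raised by platelets with a smaller fold in LPS-treated cells. H2-Ab1, a chain of the I-A molecule, measured 47.6, 58.4 and 56.01 CPM in the untreated libraries, 143, 117 and 102 in the platelet libraries, 133, 126 and 142 in the LPS libraries and 182, 189 and 167 in the platelet plus LPS libraries. The untreated libraries were the lowest and those with both treatments the highest, and the platelet and LPS libraries overlapped. Platelets raised H2-Ab1 2.23-fold without LPS (adjusted p = 1.44e-05) and 1.34-fold with LPS (adjusted p = 0.039), an interaction of -0.74 ± 0.17 (adjusted p = 0.0373). The H2-Ab1 call was lost without untreated replicate 1, 2 or 3, platelet replicate 2, LPS replicate 1, 2 or 3 or platelet plus LPS replicate 1, 2 or 3. H2-Aa, which encodes the partner chain, stood at 31.7 ± 0.742 CPM untreated, 66.03 ± 5.68 with platelets, 62.2 ± 7.403 with LPS and 83.9 ± 4.04 with both, with an interaction of -0.63 ± 0.14 (adjusted p = 0.0343) that was lost without untreated replicate 1, 2 or 3, platelet replicate 2, LPS replicate 1 or 3 or platelet plus LPS replicate 1, 2 or 3. These were the 2 calls among 17 class II genes tested, and the median of the 17 was -0.42 against 0.01 over all genes. Of the 17, 15 had a negative estimate, against 6382 of the 13151 genes tested. Without platelet replicate 1, 4 of the class II genes were called negative, and without untreated replicate 2 there were 0. No class I gene was called by edgeR among 20, with 6 at an unadjusted p under 0.05, while DESeq2 called 2 negative and limma-voom 0.

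Platelets lowered the cholesterol synthesis genes Msmo1 and Sc5d by a larger fold with LPS than without. Msmo1, a sterol demethylase, measured 151, 145 and 149 CPM in the untreated libraries, 48.4, 63.4 and 58.9 in the platelet libraries, 145, 143 and 139 in the LPS libraries and 29.9, 32.4 and 35.4 in the platelet plus LPS libraries. The untreated and LPS libraries overlapped, the platelet libraries lay below them and the platelet plus LPS libraries were the lowest. Platelets lowered Msmo1 2.61-fold without LPS and 4.38-fold with LPS, an interaction of -0.75 ± 0.14 (adjusted p = 0.0132) that was lost without untreated replicate 2 or platelet plus LPS replicate 1. Sc5d, which acts late in the same pathway, stood at 38.2 ± 2.77 CPM untreated, 16.6 ± 2.09 with platelets, 45.1 ± 2.93 with LPS and 12.4 ± 0.575 with both. Its interaction of -0.67 ± 0.15 (adjusted p = 0.0445) was a call without platelet replicate 1 and was lost without any other single library, with scaling by library size alone and with limma-voom. They were the 2 calls, both negative, among 24 genes of cholesterol synthesis and uptake, and no other gene of the 208 was lowered by platelets in both settings with a negative interaction. The list's median platelet effect was -1.28 without LPS and -1.42 with LPS, and its median interaction was -0.10. Without platelet replicate 1, 5 of the 24 were called, all negative, and without untreated replicate 2 there were 0.

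The platelet markers Clec1b and Alox12 had a negative interaction by edgeR. Clec1b, the platelet receptor for podoplanin, measured 0, 0 and 0.136 CPM in the untreated libraries, 24.8, 17.1 and 14.03 in the platelet libraries, 0.724, 0.691 and 0.763 in the LPS libraries and 14.3, 10.9 and 11.7 in the platelet plus LPS libraries. Only libraries with platelets reached 1 CPM, and the platelet libraries overlapped those with both treatments. The Clec1b interaction was -4.44 ± 0.71 (adjusted p = 0.00388) and became -7.90 without untreated replicate 3, which held all 4 of the untreated counts. Alox12, the platelet lipoxygenase, stood at 0.0464 ± 0.0206 CPM untreated, 3.54 ± 0.311 with platelets, 0.435 ± 0.109 with LPS and 2.103 ± 0.344 with both. Its interaction was -3.86 ± 0.58 (adjusted p = 0.00286), and DESeq2's Wald test did not call it. The remaining 17 of the 19 platelet markers tested were not called by edgeR. DESeq2's Wald test called Clec1b and Ctla2a negative and Rgs18 positive, the last pair being named after their values were seen. LPS libraries without platelets held 51 counts of Clec1b and 31 of Alox12, against 4 of each in untreated libraries. Slamf1, a signalling receptor of leukocytes and platelets, stood at 0.0351 ± 0.0351 CPM untreated, 3.08 ± 0.628 with platelets, 0.451 ± 0.126 with LPS and 2.64 ± 0.603 with both. The untreated libraries held 3 counts of Slamf1, so its fitted interaction of -3.79 ± 0.73 (adjusted p = 0.0146) depends on them. It became -4.63 without untreated replicate 2, and the call was lost without untreated replicate 1 or LPS replicate 1, and with DESeq2's Wald test. For Clec1b, Alox12 and Slamf1, LPS went with a higher mean in libraries without platelets and a lower mean in those with them. For Clec1b the mean went from 0.0453 to 0.725 CPM without platelets and from 18.6 to 12.3 CPM with them. Both changes enter the interaction, and the part of each was not tested. For the lower mean with platelets, fewer attached platelets and less RNA per platelet cannot be told apart in bulk libraries.

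Many of the best-known genes of the LPS response and of the platelet response gave no interaction call, which does not show that the effects were equal. Tnf stood at 30.9 ± 0.736 CPM untreated, 26.4 ± 3.29 with platelets, 1449.9 ± 79.03 with LPS and 1481 ± 71.6 with both, and its interaction had a 95% interval of -0.01 to 0.53 on the log2 scale. The interferon-induced chemokine Cxcl10 stood at 0.9603 ± 0.263 CPM untreated, 1.07 ± 0.2601 with platelets, 4692 ± 61.5 with LPS and 5573 ± 505 with both, with an interval of -0.39 to 0.59. TLR4 itself, the receptor for LPS, was lowered by LPS in both settings and stood at 55.5 ± 8.75 CPM untreated, 49.2 ± 12.9 with platelets, 15.5 ± 2.37 with LPS and 14.4 ± 1.58 with both, with an interval of -0.48 to 0.62. Hif1a stood at 148 ± 19.1 CPM untreated, 167 ± 36.4 with platelets, 507 ± 21.4 with LPS and 529.7 ± 54.3 with both (-0.53 to 0.30) and the costimulatory ligand Cd86 at 6.49 ± 0.711 CPM untreated, 9.85 ± 0.299 with platelets, 31.6 ± 4.31 with LPS and 45.7 ± 1.81 with both (-0.42 to 0.29). For Tnf, the estimate of 0.26 ± 0.13 had an adjusted p of 0.493.

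Outside the interaction calls, the platelet effect passed the threshold in at least 1 setting in 1262 genes and in both settings in 311, all 311 in the same direction. They included Abcg1, Abca1, Sqle, Vegfa and Arg1. The cholesterol exporter Abcg1 stood at 0.618 ± 0.402 CPM untreated, 15.95 ± 2.64 with platelets, 2.35 ± 0.254 with LPS and 59.6 ± 4.64 with both, and platelets raised it 25.8-fold without LPS and 25.3-fold with LPS, with an interaction interval of -0.69 to 0.64. Its relative Abca1 stood at 6.48 ± 1.85 CPM untreated, 101 ± 4.92 with platelets, 33.7 ± 7.198 with LPS and 279 ± 34.3 with both, with an estimate of -0.92 ± 0.25 (adjusted p = 0.105) that passed without platelet replicate 1, with no filter on low counts and by DESeq2. The sterol enzyme Sqle stood at 151 ± 3.24 CPM untreated, 42.6 ± 9.44 with platelets, 65.8 ± 1.24 with LPS and 14.5 ± 2.199 with both (-0.78 to 0.06). The Sqle interaction passed the threshold without platelet replicate 1. Vegfa, the endothelial growth factor, stood at 10.1 ± 1.34 CPM untreated, 26.1 ± 1.72 with platelets, 16.3 ± 1.601 with LPS and 44.8 ± 3.102 with both (-0.27 to 0.44). Arg1, a marker of alternative activation, stood at 62.5 ± 4.51 CPM untreated, 205 ± 34.2 with platelets, 34.5 ± 4.797 with LPS and 137 ± 21.7 with both (-0.14 to 0.70). Platelets raised Arg1 3.27-fold without LPS and 3.97-fold with LPS.

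Several induced mediators with low untreated levels did not pass the threshold. Il1b stood at 1.01 ± 0.317 CPM untreated, 2.04 ± 1.25 with platelets, 1065 ± 31.4 with LPS and 723 ± 60.1 with both. Its estimate of -1.61 ± 0.40 (adjusted p = 0.0648) missed the threshold and passed it without platelet replicate 1 and with no filter on low counts. The itaconate enzyme Acod1 stood at 2.06 ± 0.629 CPM untreated, 3.45 ± 1.38 with platelets, 6705 ± 389.8 with LPS and 6705 ± 193 with both (-1.39 to -0.12), and it passed in those same settings. The neutrophil chemokine Cxcl1 stood at 0.965 ± 0.395 CPM untreated, 1.03 ± 0.406 with platelets, 474 ± 23.05 with LPS and 284 ± 6.94 with both (-1.50 to -0.12), and DESeq2 called it. Ptgs2, the inducible prostaglandin synthase, stood at 0.965 ± 0.717 CPM untreated, 0.497 ± 0.583 with platelets, 262 ± 14.5 with LPS and 109.9 ± 17.5 with both (-1.82 to 1.03). Platelets lowered Cxcl1 1.67-fold (adjusted p = 0.00536) and Ptgs2 2.39-fold (adjusted p = 0.00831) in LPS-treated cells. Il6 stood at 0.0113 ± 0.0196 CPM untreated, 0.0646 ± 0.0378 with platelets, 136 ± 12.2 with LPS and 105 ± 14.95 with both, with 1 count in all untreated libraries. Il12b, Nos2 and Ifnb1 had 0 counts in the untreated group. Il12b stood at 0.198 CPM with platelets, 147 ± 9.91 with LPS and 143 ± 20.2 with both, Nos2 at 0.0569, 112 ± 21.2 and 239 ± 31.2, and Ifnb1 at 0, 5.603 ± 0.335 and 4.36 ± 1.28. No fold against the untreated group is given for these 3 genes, and no interaction size from the main fit. Il12b passed the threshold without platelet replicate 3, with no filter on low counts and by DESeq2. Platelets raised Nos2, the inducible nitric oxide synthase, 2.14-fold in LPS-treated cells (adjusted p = 0.00166).

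Read by list, calls were spread over many functions, and each count is to be set against the 1.58% called over all genes. Of 35 inducible effector enzymes and receptors, 1 was positive (Mmp13) and 6 negative (Saa3, Hp, Mmp9, Mmp14, Icam1 and Tgm2), with a median of -0.16. Alternative activation and repair had 4 positive calls (Pdgfa, Tgfb1, Tgfbi and Il10) and 3 negative ones (Ccl24, Thbs1 and Tgm2) among 26. Adhesion and chemokine receptors had 3 positive (Cx3cr1, S1pr1 and P2ry6) and 3 negative (Ccr7, Ccrl2 and Icam1) among 32. Feedback inhibitors of TLR signalling had 2 positive (Tnip2 and Dusp4) and 3 negative (Nfkbie, Irak2 and Trib3) among 33. Irak2 was placed in that list although it is a signalling component of the TLR complex. NF-kB, IRF and STAT factors had 2 positive (Irf2 and Irf8) and 3 negative (Nfkb2, Relb and Batf) among 24. Cytokines and growth factors had 2 positive (Il10 and Tgfb1) and 2 negative (Il1a and Ebi3) among 28. The cAMP and prostaglandin response had 1 positive (Il10) and 2 negative (Rgs1 and Thbs1) among 23, and lysosome and phagocytosis 1 positive (Fcgr1) and 2 negative (Marco and Fcgr2b) among 43. LXR targets had Arl4c alone among 15, immediate early genes Fos alone among 23, the cell cycle Cdt1 alone among 44, costimulation Slamf1 alone among 19 and iron handling Spic alone among 18. Smad6, Ccl24, Cxcl16, Hp, Icam1, S1pr1, Ccrl2, Tnip2, Nfkbie and Relb are named only as list members. Single libraries moved these counts. Without platelet replicate 1, positive and negative calls were 2 and 9 in the effector list, 5 and 6 in adhesion and chemokine receptors, 2 and 5 in feedback inhibitors, 2 and 4 in cytokines, 3 and 2 in the cAMP list, 1 and 1 in LXR targets, 0 and 3 in costimulation, 0 and 2 in iron handling and 2 and 0 in the cell cycle. Without untreated replicate 2, they were 1 and 4 in the effector list, 3 and 1 in adhesion and chemokine receptors, 1 and 1 in feedback inhibitors, 1 and 1 in the NF-kB list, and 0 and 1 in lysosome and phagocytosis.

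No member of 4 further lists was called by edgeR. For 46 oxidative phosphorylation genes, 0 had an unadjusted p under 0.05 and neither DESeq2 nor limma-voom called any. For 22 NRF2 targets, 4 had an unadjusted p under 0.05 and neither of the other tools called any, and for 10 mitochondrially encoded transcripts 0 did and neither called any. For 37 pattern recognition receptors and adaptors, 9 had an unadjusted p under 0.05, and DESeq2 called 1 positive and 2 negative while limma-voom called 0. Of 44 cell cycle genes, 37 had a positive estimate, with a median of 0.16, and of 46 oxidative phosphorylation genes 43 had a negative one, with a median of -0.10. Over all genes tested, 6769 estimates were positive and 6382 negative, with a median of 0.01. Among markers of other cells, none of 5 erythroid, 3 B cell, 2 T and NK cell or 5 stromal genes tested was called by edgeR, with 1, 1, 0 and 0 at an unadjusted p under 0.05. Erythroid markers still summed to 1.33 to 2.24 CPM untreated, 12.1 to 24.9 with platelets, 3.15 to 4.47 with LPS and 9.97 to 14.3 with both. Between untreated and platelet libraries, B cell and stromal sums overlapped. The T and NK cell sum went from 74.5 to 85.0 CPM untreated to 61.3 to 69.6 with platelets. The part of such cells in the results was not tested. Of 14 monocyte and macrophage markers tested, 3 were positive (Fcgr1, Cx3cr1 and Irf8) and 0 negative by edgeR. Among these markers, 4 were positive and 1 negative without platelet replicate 1, and without untreated replicate 2, Cx3cr1 alone was called.

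**Figure D5:**
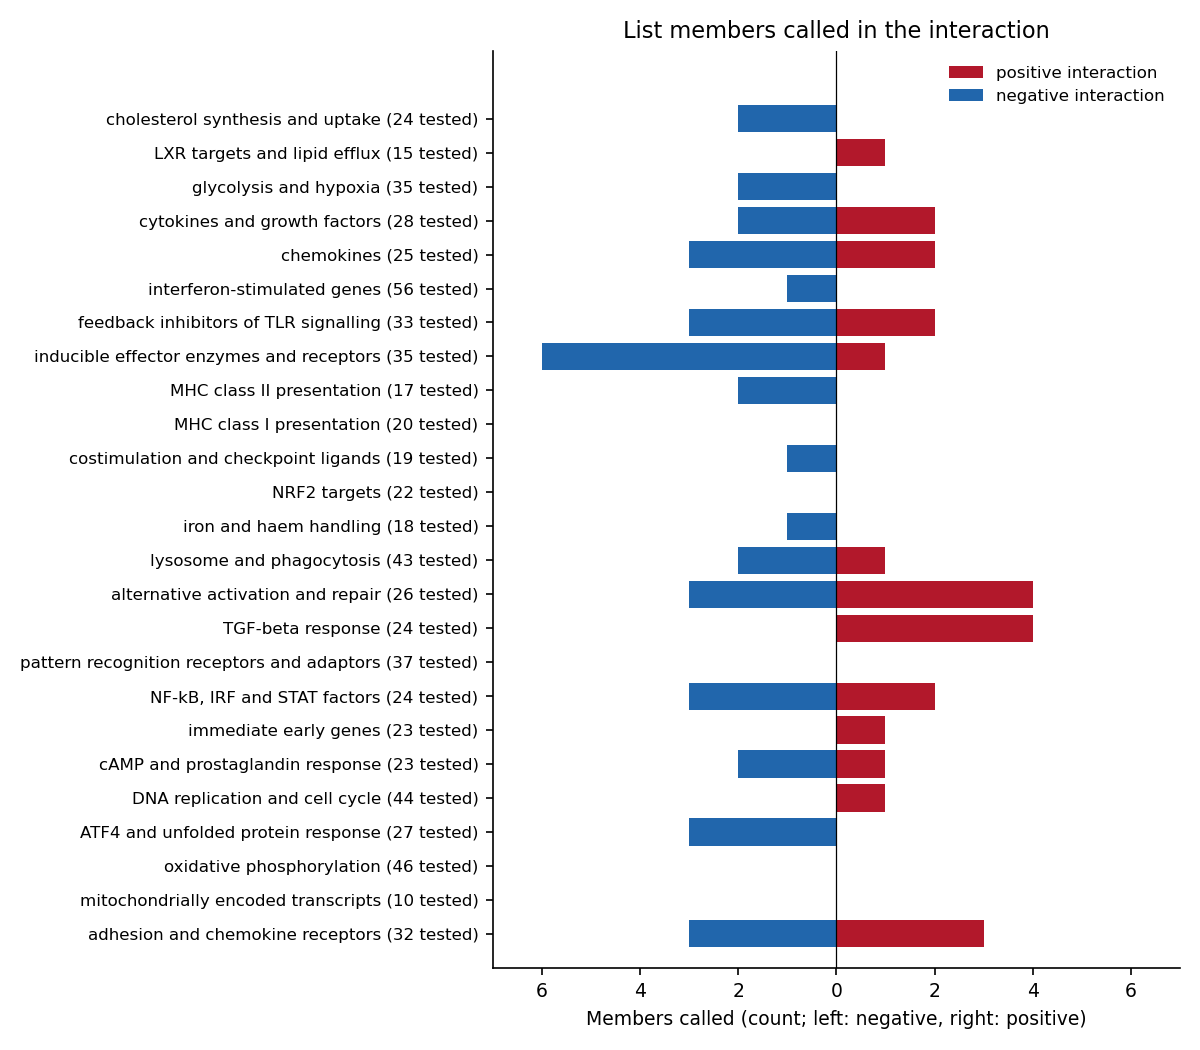
Members of each of 25 gene lists called in the interaction (count, negative to the left in blue, positive to the right in red), with the number of members tested in brackets. Inducible effector enzymes and receptors have the most negative calls (6 of 35), and the TGF-beta response has 4 positive and 0 negative calls of 24.

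Promoters were compared by short motifs of factors that act in these responses, both strands being searched. The shares cover the 250 bases before the start of each gene in the RefSeq table of GRCm38.p6 and a shorter stretch after the start. The promoters printed below, and the motif positions in them, cover the 250 bases before the start alone. A promoter was found for 9788 of the 13151 genes tested, 90 of the 113 positive and 78 of the 95 negative ones. The interferon-stimulated response element core GAAANNGAA was in 7.57% of all, 12.2% of the positive and 11.5% of the negative promoters. The NF-kB motif GGANNTTCC was in 4.69%, 2.22% and 7.69%, and the hypoxia response element core ACGTG in 26.2%, 24.4% and 19.2%. The sterol response element TCACNCCAC was in 1.01%, 0 and 2.56%. These shares are a description of the letters and were not tested. The 4 promoters below belong to genes described above, and they show the cores, in capitals, of an interferon-induced gene (Ifit1), of a gene lowered by LPS and raised by LPS after platelets (Tgfbi) and of genes raised by platelets (Mmp14 and Egln3). In Ifit1, which holds 3 interferon-stimulated cores, the first 2 overlap at bases -109 to -101 and -103 to -95 and the third is at -84 to -76, counted from the start. Tgfbi holds 1 such core at -194 to -186. The hypoxia core is at -48 to -44 in Mmp14 and at -229 to -225 in Egln3.
Ifit1 promoter, chr19:34640639-34640888, plus strand: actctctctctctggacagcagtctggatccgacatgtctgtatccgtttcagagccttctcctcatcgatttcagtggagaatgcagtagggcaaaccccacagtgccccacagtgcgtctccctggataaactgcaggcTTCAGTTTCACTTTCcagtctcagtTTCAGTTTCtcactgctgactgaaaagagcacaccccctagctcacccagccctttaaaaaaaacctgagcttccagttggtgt
Tgfbi promoter, chr13:56609336-56609585, plus strand: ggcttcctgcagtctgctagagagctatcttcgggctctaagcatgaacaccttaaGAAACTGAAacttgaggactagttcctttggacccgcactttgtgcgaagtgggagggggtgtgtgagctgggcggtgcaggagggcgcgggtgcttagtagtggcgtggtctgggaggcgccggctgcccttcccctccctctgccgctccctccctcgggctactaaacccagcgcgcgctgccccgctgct
Mmp14 promoter, chr14:54431348-54431597, plus strand: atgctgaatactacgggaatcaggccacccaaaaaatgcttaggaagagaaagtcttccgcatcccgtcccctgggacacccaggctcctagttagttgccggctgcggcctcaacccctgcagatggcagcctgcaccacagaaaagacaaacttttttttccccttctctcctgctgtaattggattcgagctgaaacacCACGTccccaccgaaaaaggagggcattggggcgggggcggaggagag
Egln3 promoter, chr12:54203875-54204124, minus strand: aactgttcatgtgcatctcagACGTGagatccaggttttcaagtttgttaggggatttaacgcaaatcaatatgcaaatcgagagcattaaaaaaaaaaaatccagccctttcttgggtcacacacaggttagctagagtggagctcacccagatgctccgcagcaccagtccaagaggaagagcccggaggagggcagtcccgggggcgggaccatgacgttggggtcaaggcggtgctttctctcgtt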

How the data were processed

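RNA was measured in 12 libraries of mouse monocytes. Per the labels, libraries were made by pre-amplification with the SMARTer Ultra Low Input kit and NexteraXT. The submitters' processing notes list fastp 0.23.1, STAR 2.7.9a, Subread 2.0.1, featureCounts and Salmon 1.5.2, without their roles. The files deposited by the authors hold whole-number read counts for 53819 genes per library, with no normalization. The build, annotation and strand of the counting are unknown here, being not given in the sources used here. Reads without molecular identifiers are not independent molecules, so limits from counts cover counting error only.

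Genes were filtered by filterByExpr, which kept 13151 of 26048 with a count, and scaled by TMM. They were tested with edgeR 4.0.16 in R 4.3.3 by its two-sided quasi-likelihood test, in 1 fit of 4 group means with 8 residual degrees of freedom and a common dispersion of 0.0171. Benjamini-Hochberg adjustment ran over all genes tested, and an adjusted p under 0.05 was a call. The script was tested on simulated data. CPM values use the TMM-scaled library sizes.

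The genes named are the 14 most positive and 14 most negative calls whose group means reached 10 CPM in the highest and 0.5 CPM in the lowest group, without predicted genes and pseudogenes. Also named are up to 3 calls of smallest p from each of 34 gene lists and 24 fixed genes. Of these, 2 genes are not reported here, and of the other 76 genes, 58 were calls. Members and lists were chosen with earlier results of these data known. The labels do not say whether replicate numbers pair the libraries. Of 18 same-number pairs in different groups, 2 had deviations from the group means that correlated above 0.1. Correlations of different-number pairs ranged from -0.29 to 0.39, so with 3 libraries per group this check cannot exclude pairing. The main fit has no replicate term. Alternatives were other scalings and filters, DESeq2 1.42.0, limma-voom of limma 3.58.1, a replicate block, an absolute log2 of at least 1, the linear CPM scale, and each library left out. Names were matched to GENCODE M21 and promoters to RefSeq by symbol.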

Additional observations from a re-analysis of the deposited data

Results flagged for a closer look

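A difference between the platelet effects with and without LPS, tested as the interaction itself by edgeR, was found in 208 genes, and the named ones are given here with their log2 interaction. Positive estimates were Usp2 1.87, Il10 1.77, Dusp4 1.66, Arl4c 1.51, Pdgfa 1.47, Cd72 1.46, Cx3cr1 1.44, Ccl2 1.40, Runx3 1.40, Synj2 1.38, P2ry6 1.32, Ccl7 1.30, Mmp13 1.25, Tgfbi 1.13, Fos 0.99, Cdt1 0.96, Irf2 0.79, Irf8 0.66, Tgfb1 0.52 and Fcgr1 0.50.

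Negative estimates in genes with a mean under 0.5 CPM in the lowest group were Ccl5 -4.66, Clec1b -4.44, Il1a -4.04, Alox12 -3.86, Slamf1 -3.79, Ccr7 -2.89, Hdc -1.87, Saa3 -2.97 and Ifit1 -2.06. The other negative estimates were Trib3 -2.21, Gdf15 -2.07, Adgre4 -2.00, Tsc22d1 -1.91, Thbs1 -1.88, Marco -1.86, Mmp14 -1.79, Egln3 -1.70, Spic -1.55, Il20rb -1.47, Bcl2a1b -1.42, Cd5l -1.32, Ak4 -1.31 and Tmem176b -1.24, followed by Mmp9 -1.23, Phgdh -0.99, Batf -0.83, Tgm2 -0.81, Msmo1 -0.75, Ebi3 -0.74, Rgs1 -0.74, H2-Ab1 -0.74, Sc5d -0.67, Irak2 -0.64, H2-Aa -0.63, Nfkb2 -0.59, Bnip3 -0.57, Fcgr2b -0.56 and Herpud1 -0.56.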

How the results depend on the processing

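All 208 genes kept their direction in the 20 alternative fits, and 76 of them (45 positive and 31 negative) passed in every one. DESeq2 size factors, upper-quartile factors, library size alone, a strict filter and limma-voom gave 193, 196, 175, 218 and 174 calls. With no filter, 371 genes passed, 228 positive and 143 negative. DESeq2's Wald test called 403, 192 positive and 211 negative, so that its share of positive calls was lower. An absolute log2 of at least 1 left 75, 34 positive and 41 negative. With the replicate block 118 passed, 62 positive and 56 negative, all among the 208; correlations of same-number libraries ranged from -0.35 to 0.21, so the block is no evidence of pairing, and 46 of the 58 named calls passed with it. With each library left out in turn, calls ranged from 87 to 361, positive ones from 47 to 153 and negative ones from 40 to 208. On the linear CPM scale, 108 of the 113 positive and 80 of the 95 negative genes had the same sign. Among named genes the sign was the other one for Arl4c (-8.93 CPM), Mmp13 (-41.9), Mmp14 (113), Ak4 (6.43), Bnip3 (4.58), Il1a (27.6), Ccl5 (196), Ifit1 (355), Saa3 (22.3), Fcgr2b (11.0) and Tgm2 (11.8), since the scale compares differences and not folds. Genes without a call that changed sign were Nos2 (0.0181) and Ptgs2 (0.0141) by limma-voom. With a library left out, their log2 interaction ranged over -3.32 to 1.10 and -1.19 to 1.25, that of Cxcl10 over -0.11 to 0.29, Tlr4 -0.16 to 0.20, Abcg1 -0.47 to 0.42, Vegfa -0.00504 to 0.19, Hif1a -0.32 to 0.00185 and Cd86 -0.16 to 0.0314. Nos2 had no counts in the untreated libraries, so its values here give no size. The untreated libraries held 6 counts of Ccl5, 4 of Clec1b, 3 of Slamf1 and 1 of Il1a, and at this depth the size of these 4 interactions is not fixed.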
